A study of Mus musculus with 7 samples.

Results

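Cytotoxic granules are secretory lysosomes that natural killer cells and killer T cells release onto target cells. The 8 genes described here are grouped as cytotoxic granule genes. Nkg7 encodes a granule membrane protein, and Gzma, Gzmb, Gzmc and Gzmk encode granzymes. Prf1 encodes the pore-forming protein perforin, and Ctsw the cysteine protease cathepsin W. Srgn encodes serglycin, the core protein of the proteoglycan that holds granule contents. All 8 were taken by gene symbol from 55335 Ensembl identifiers. Each symbol was listed in both the count table and the table of FPKM (fragments scaled to transcript length and library depth). The 8 genes were chosen with their values in these same libraries known, so their levels and fold changes are given as a description. Counts of members past a threshold are given beside the share of all genes past it where that share was computed. They are repeated by setting at the end, and support nothing.

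RNA came from type 2 innate lymphoid cells (ILC2s), lymphocytes without rearranged antigen receptors that carry the interleukin 33 receptor ST2. They were sorted from mouse hearts as CD45+ Lineage- ST2+ cells. There were 3 libraries of naive hearts and 4 libraries of BALB/c hearts harvested 7 days after transplantation into C57BL/6 recipients, a fully mismatched model of acute rejection. Each library pooled the cells of 4 to 7 hearts, so that a library and not an animal was the replicate. The strain of the naive hearts and the sex and age of the animals were not given in the labels. The sort, as described, did not separate donor cells from recipient cells. The comparison addresses how ILC2s in a rejecting heart differ from those in a resting one.

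In a cytotoxic cell, granzymes are made as precursors, trimmed by cathepsin C and stored in an acidic granule bound to serglycin. After the granule fuses with the plasma membrane, perforin opens the target cell membrane and granzymes enter and cut their substrates. Nkg7 sits in the granule membrane and is required for full degranulation in natural killer and CD8+ T cells. ILC2s are known mainly for secreting type 2 cytokines such as interleukin 5 and interleukin 13.

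Total counts ranged from 29107326 to 53044907 per library, and 3 counts, the limit that a count of 0 allows, corresponded to between 0.0566 and 0.103 counts per 1000000 total counts (CPM). Naive library 2 stood apart. Mitochondrial genes took 26.5% of its counts, against 2.04 to 3.11% in the other 6 libraries. The summed level of 12 ILC2 markers was 204 CPM there, against 6449 and 8479 CPM in the other naive libraries and 7141 to 7735 CPM in the allografts. Its level of Il1rl1, the gene of the sorting antigen ST2, was 6.79 CPM, against at least 343 CPM in every other library. Values are therefore given per library and also without naive library 2. In these bulk samples, fewer cells of a type and less RNA per cell cannot be told apart. Genes with a count above 0 numbered 15820, 20254 and 13864 in naive libraries 1 to 3, against 19235 to 21354 in the allografts. Naive libraries 1 and 3 thus had the fewest, though their total counts were not the lowest. The part of this in counts of 0, in folds above the floor and in fits without naive library 2 was not tested.

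Nkg7 was higher in every allograft library than in every naive library. Its level was 51.2, 24.2 and 51.9 CPM in naive libraries 1 to 3, and 258, 273, 240.1 and 239.6 CPM in allograft libraries 1 to 4. The groups did not overlap, and the lowest allograft library held 4.62 times the level of the highest naive library. The naive libraries averaged 42.4 ± 15.8 CPM (SD, n = 3) and the allografts 253 ± 16.0 CPM (SD, n = 4), a 5.96-fold difference. Without naive library 2 the naive mean was 51.5 ± 0.514 CPM (SD, n = 2) and the fold 4.90. The fitted log2 fold change of Nkg7 was 2.43 over all libraries and lay between 2.25 and 2.55 when any 1 library was left out. When genes were ranked by FPKM, Nkg7 stood at places 1327, 1656 and 1048 from the top in the naive libraries and between 234 and 280 in the allografts.

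The Nkg7 gene lies on chromosome 7 from 43437073 to 43438249, on the plus strand (GENCODE M21, GRCm38, the assembly also called mm10). Its upstream sequence is shown because Nkg7 separated the groups most widely, with matches to 6 short motifs in capitals. The motifs of T-box, RUNX, GATA, STAT, AP-1 and ETS factors were searched on both strands of the 250 bases before each RefSeq start, and their letters are given with the results. The first stretch below covers chr7:43436888-43437072 and ends where the GENCODE first exon begins, because the RefSeq start (assembly GRCm38.p6) lies 65 bases further downstream. The second stretch is the last 25 bases before that RefSeq start, chr7:43437113-43437137, and lies within the GENCODE first exon.

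Nkg7 upstream: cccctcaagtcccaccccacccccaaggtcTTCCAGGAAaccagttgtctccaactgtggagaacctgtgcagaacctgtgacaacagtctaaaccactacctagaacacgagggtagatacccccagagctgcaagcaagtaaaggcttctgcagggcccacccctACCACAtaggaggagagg

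Nkg7 last 25 bases: gggggtagggaAGGTGTGAgaagaa

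The capitals mark a STAT match, a RUNX match on the opposite strand and, in the second stretch, the T-box match at positions -14 to -7 from the RefSeq start. The T-box letters searched, AGGTGTGA, occurred in 1.12% of 32851 mouse promoter windows of 250 bases. The STAT letters, TTCNNNGAA, occurred in 7.02% of those windows. The RUNX letters, TGTGGT, occurred in 14.0%. Of the 7 members with a RefSeq promoter entry, only Nkg7 held the T-box letters and only Nkg7 held the STAT letters. A match is a description of letters and not evidence of binding.

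**Figure D1:**
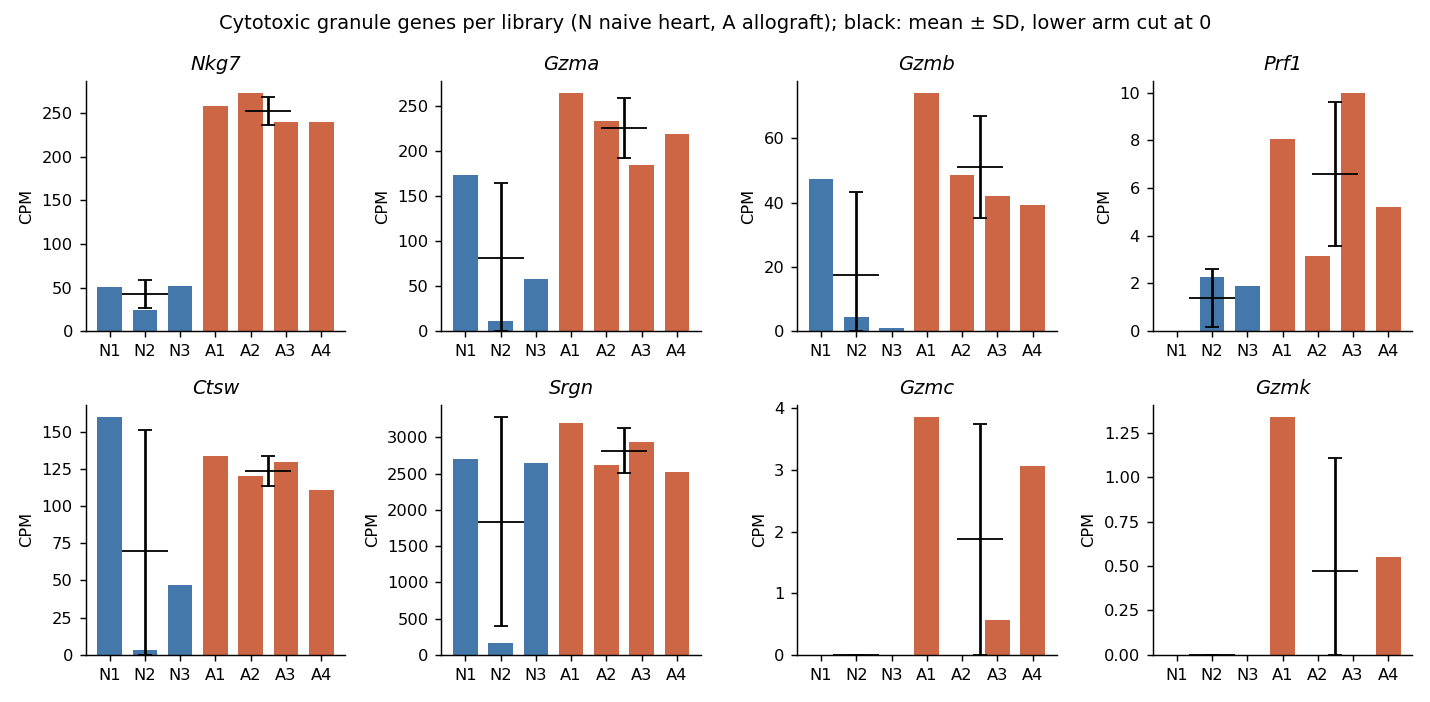
Bars give the level of each of the 8 genes, in CPM on a linear axis from 0, in naive libraries 1 to 3 (N1 to N3, blue) and allograft libraries 1 to 4 (A1 to A4, orange), with the mean and SD of each group in black and the lower arm ending at 0 where the SD exceeds the mean. Nkg7, Gzma and Prf1 show no overlap between the groups (Prf1 overlaps in TMM-scaled CPM), while N2 lies far below N1 and N3 for Srgn and Ctsw, at 169.6 and 3.21 CPM.

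Granzyme A, a granzyme that cuts after basic residues, held the largest share of granzyme transcripts in every library. Gzma was at 174, 11.3 and 57.9 CPM in the naive libraries and at 265, 234, 185 and 220 CPM in the allografts. Every allograft library was above every naive one, but the lowest allograft lay only 1.06 times above naive library 1. Mean levels were 81.0 ± 83.6 CPM (SD, n = 3) and 226 ± 33.2 CPM (SD, n = 4), a 2.79-fold difference, and 1.95-fold without naive library 2. The spread within the naive group exceeded its mean.

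Granzyme B, which cuts after aspartate and can activate caspases, did not separate the groups. Gzmb was at 47.4, 4.48 and 0.963 CPM in the naive libraries and at 74.1, 48.6, 42.0 and 39.3 CPM in the allografts. The groups overlapped, because naive library 1 lay above allograft libraries 3 and 4. The means were 17.6 ± 25.8 CPM (SD, n = 3) and 51.0 ± 15.9 CPM (SD, n = 4). The ratio of naive library 1 to naive library 3 was 0.986 for Nkg7 and 1.02 for Srgn, but 49.2 for Gzmb and 3.00 for Gzma. Leaving out naive library 1 moved the fitted log2 fold change of Gzmb from 1.49 to 3.75 and that of Gzma from 1.44 to 2.55.

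Granzyme C, encoded next to Gzmb, had 0 counts in all 3 naive libraries and 170, 0, 23 and 89 counts in allograft libraries 1 to 4. Its allograft mean of 1.87 ± 1.88 CPM (SD, n = 4) was at least 29.3-fold higher than the mean naive floor of 3 counts per library. Granzyme K, encoded near Gzma, had 0 counts in the naive libraries and 59, 0, 0 and 16 counts in the allografts, at least 7.41-fold above the same floor. Allograft library 2 held neither transcript, and library 3 held only Gzmc. Both genes were thus detected in some allograft pools and not in others. The Gzmk gene model overlaps that of Esm1, an endothelial gene, by 8440 bases on the opposite strand, and whether the counting used strand was not given in the sources used here. Esm1 had 655 and 49 counts in naive libraries 2 and 3 and 0 in the allografts.

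The 4 granzyme genes sit in 2 neighbouring pairs (GENCODE M21, GRCm38). Gzma spans 113093825 to 113100981 and Gzmk 113171608 to 113225908 on chromosome 13, 70.6 kb apart. Gzmc spans 56231441 to 56234656 and Gzmb 56258838 to 56262260 on chromosome 14, 24.2 kb apart. All are on the minus strand. Coding sequences were 78.0% identical between Gzmb and Gzmc and 64.6% between Gzma and Gzmk. To compare the transcripts over a short stretch, 42 coding bases of exon 5 from the catalytic serine region are given. They are read in the direction of the gene. The first 18 bases, in capitals, are those matched in frame by a pattern of the bases conserved around the catalytic serine codon. Gzmc had no match to that pattern, and its window is the in-frame one most like that of Gzmb.

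Gzma, chr13:113094009-113094050: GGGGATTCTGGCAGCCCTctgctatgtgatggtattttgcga

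Gzmk, chr13:113171994-113172035: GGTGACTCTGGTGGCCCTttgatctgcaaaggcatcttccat

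Gzmb, chr14:56259521-56259562: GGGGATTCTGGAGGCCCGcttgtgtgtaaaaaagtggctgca

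Gzmc, chr14:56231616-56231657: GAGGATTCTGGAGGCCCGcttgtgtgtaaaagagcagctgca

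Of these 42 bases, Gzmc shared 38 with Gzmb, Gzma 24 and Gzmk 22. Of 845 stretches of 50 bases in the Gzmc transcripts, 35 (4.14%) also occurred in Gzme, Gzmg or Gzmd. How far this affected the low counts of Gzmc was not tested. The transcripts of the other 7 members shared no stretch of that length with another gene, and Gzmd, Gzme, Gzmf, Gzmg and Gzmn themselves had 0 counts in all libraries.

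Composition of the granzymes was compared per length, as each gene's share of the summed FPKM of the 4. Gzma held 84.0, 78.2 and 98.9% in the naive libraries and 82.3, 87.3, 86.1 and 87.6% in the allografts. The allograft range lay inside the naive range. Gzmb held 16.0, 21.8 and 1.15% in the naive libraries and 10.9 to 16.1% in the allografts. Gzmc reached at most 1.36% and Gzmk at most 0.295%. Gzma averaged 87.0 ± 10.6% (SD, n = 3) of granzyme FPKM over the naive libraries and 85.8 ± 2.44% (SD, n = 4) over the allografts, a difference smaller than the spread between naive libraries. Without naive library 3 it was 4.68 percentage points higher in the allografts, the opposite direction.

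The promoters of Gzma and Gzmb are shown for comparison with that of Nkg7, over the 250 bases before each RefSeq start at chr13:113100982-113101231 and chr14:56262335-56262584, both read along the minus strand.

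Gzma promoter: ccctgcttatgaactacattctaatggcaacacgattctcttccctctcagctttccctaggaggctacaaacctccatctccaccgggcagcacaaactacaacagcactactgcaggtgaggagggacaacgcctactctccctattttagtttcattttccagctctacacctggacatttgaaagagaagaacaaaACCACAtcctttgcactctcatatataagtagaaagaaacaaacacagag

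Gzmb promoter: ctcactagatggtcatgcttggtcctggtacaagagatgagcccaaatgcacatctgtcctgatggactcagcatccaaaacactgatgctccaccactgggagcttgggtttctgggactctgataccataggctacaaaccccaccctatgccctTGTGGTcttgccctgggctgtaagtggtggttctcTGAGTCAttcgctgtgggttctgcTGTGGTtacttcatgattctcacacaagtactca

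In the Gzma promoter the capitals mark 1 RUNX match on the opposite strand, at -50 to -45. In that of Gzmb they mark 2 RUNX matches and, at -58 to -52, the only AP-1 match among the members. The AP-1 letters, TGANTCA, occurred in 6.75% of all windows. The 7 members with an entry had 8 windows, because Srgn had 2. RUNX letters were found in 6 of these 8 windows and in 14.0% of all windows. The GATA letters, AGATAA, were found in 0 of the 8 and in 9.99% of all windows.

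Perforin, which lets granzymes into the target cell, was low in all libraries. Prf1 had 0, 104 and 82 counts in the naive libraries and 355, 102, 408 and 151 counts in the allografts. In CPM these were 0, 2.29 and 1.88 against 8.06, 3.15, 9.99 and 5.19. In CPM the groups did not overlap, and the lowest allograft lay 1.38 times above naive library 2. Scaled by the TMM factors of the edgeR fit they did overlap, with 3.16 in naive library 2 and 2.93 in allograft library 2. Means were 1.39 ± 1.22 CPM (SD, n = 3) and 6.60 ± 3.03 CPM (SD, n = 4), a 4.75-fold difference, and 7.01-fold without naive library 2. Prf1 was the only detected member whose highest naive level was in naive library 2, where it was 2.43 times the mean of naive libraries 1 and 3. The gene lies on chromosome 10 from 61297833 to 61304680, on the plus strand, and the 250 bases before its RefSeq start are at chr10:61297586-61297835.

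Prf1 promoter: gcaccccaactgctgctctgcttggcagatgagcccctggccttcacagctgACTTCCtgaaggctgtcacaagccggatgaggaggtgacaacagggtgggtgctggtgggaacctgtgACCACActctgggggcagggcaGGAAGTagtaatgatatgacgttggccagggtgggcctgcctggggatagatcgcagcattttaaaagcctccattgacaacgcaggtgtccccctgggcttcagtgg

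Capitals there mark 2 ETS matches, 1 on each strand, and 1 RUNX match on the opposite strand. The ETS letters, GGAAGT, were found in 4 of the 8 windows of the members with an entry and in 19.7% of all windows.

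Serglycin, which many blood cells make, was the most abundant member and did not separate the groups. Srgn was at 2697, 169.6 and 2650 CPM in the naive libraries and at 3194, 2617, 2936 and 2517 CPM in the allografts. Naive libraries 1 and 3 lay inside the allograft range. The 1.53-fold difference of the means became 1.05-fold without naive library 2, when the naive mean was 2674 ± 33.5 CPM (SD, n = 2) and the allograft mean 2816 ± 309 CPM (SD, n = 4). Srgn spans 62493833 to 62527451 on the minus strand of chromosome 10.

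Cathepsin W, a lysosomal-family protease expressed in natural killer and CD8+ T cells, was highest in a naive library. Ctsw was at 160, 3.21 and 47.1 CPM in the naive libraries and at 133, 120, 130 and 111 CPM in the allografts, so that 0 of the 4 allografts lay above naive library 1. Means were 70.1 ± 80.9 CPM (SD, n = 3) and 123 ± 10.2 CPM (SD, n = 4), a ratio of 1.76, and of 1.19 without naive library 2. Its fitted log2 fold change was 0.80 over all libraries, 0.22 without naive library 2 and 2.19 without naive library 1. Ctsw, at 5465043 to 5468507 on the minus strand of chromosome 19, overlaps Fibp on the opposite strand by 9 bases.

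**Figure D2:**
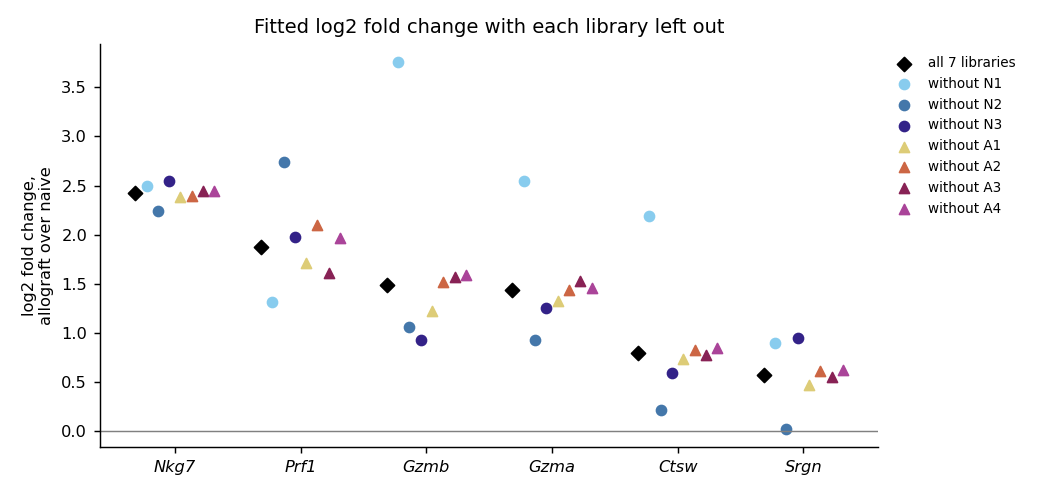
Points give the fitted log2 fold change, allograft over naive, of the 6 members detected in naive libraries, over all 7 libraries (black diamonds) and with each naive (circles) or allograft (triangles) library left out in turn. The values of Nkg7 stay between 2.25 and 2.55, while those of Gzmb range from 0.93 to 3.75 and those of Ctsw from 0.22 to 2.19, with the largest shift of both from leaving out N1.

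Per length, the order of mean FPKM in the allografts was Srgn (1110), Nkg7 (240), Gzma (195), Ctsw (56.8), Gzmb (30.7), Prf1 (2.19), Gzmc (1.80) and Gzmk (0.285). From Srgn to Prf1 the ranges of neighbours over the 4 libraries did not overlap, while those of Prf1, Gzmc and Gzmk did. In the naive libraries the order was Srgn (738), Gzma (71.0), Nkg7 (41.2), Ctsw (32.7), Gzmb (10.8) and Prf1 (0.481), and all neighbours overlapped. Nkg7 thus stood below Gzma in the mean of the naive libraries and above it in that of the allografts. Within libraries, the ratio of Nkg7 to Gzma in FPKM was 0.324, 2.36 and 0.985 in the naive libraries and 1.07 to 1.43 in the allografts, so naive library 2 lay above all allografts.

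Levels were also set against serglycin, the most abundant granule transcript. The ratio of Nkg7 to Srgn in FPKM was 0.0456 and 0.0471 in naive libraries 1 and 3 and 0.194, 0.251, 0.197 and 0.229 in the allografts. In naive library 2 it was 0.343, above all allografts, so the separation of this ratio held only without that library. Gzma to Srgn was 0.141, 0.145 and 0.0478 in the naive libraries and 0.138 to 0.195 in the allografts, which overlapped. Ctsw to Srgn was 0.0693, 0.0220 and 0.0207 against 0.0487 to 0.0535.

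**Figure D3:**
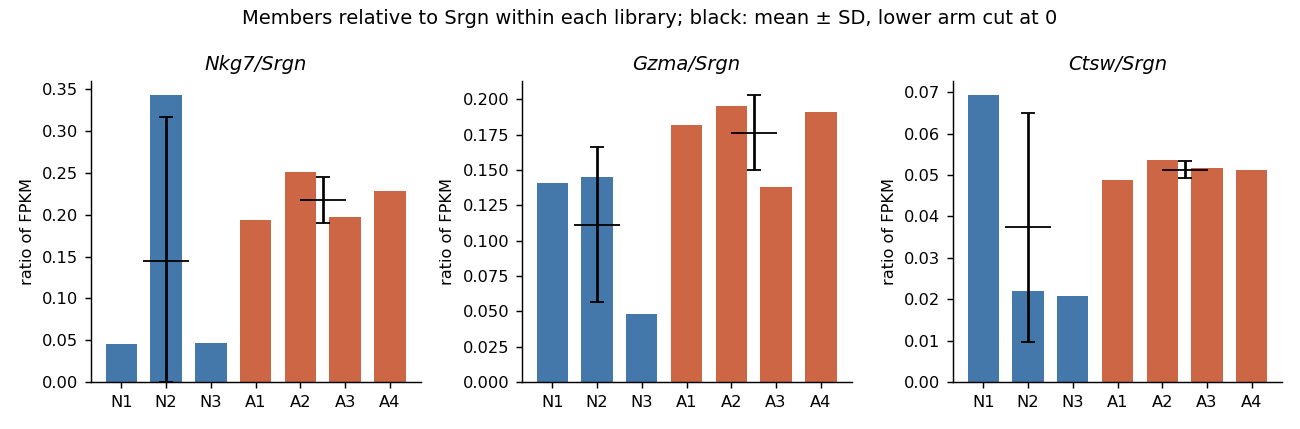
Bars give the ratio of the FPKM of Nkg7, Gzma and Ctsw to that of Srgn in every library, on linear axes from 0, with naive libraries (N1 to N3) in blue, allografts (A1 to A4) in orange, and the mean and SD of each group in black with the lower arm ending at 0. For Nkg7 the allografts lie between 0.194 and 0.251, above N1 and N3 at 0.0456 and 0.0471 and below N2 at 0.343.

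The members differed in how far naive library 2 fell short. The mean of naive libraries 1 and 3 was 36.5 times its value for the summed ILC2 markers, 32.3 times for Ctsw, 15.8 times for Srgn, 10.3 times for Gzma, 5.39 times for Gzmb and 2.13 times for Nkg7. Among the allografts, library 1 was the highest for 6 of the 8 members, library 2 for Nkg7 and library 3 for Prf1. The same library 1 was highest for 6 of 12 marker lists. Scaled to Ptprc, the gene of the sorting antigen CD45, no member separated all naive from all allograft libraries. Nkg7 was at 21.4, 207 and 9.18 counts per 100 Ptprc counts in the naive libraries and at 36.9 to 65.5 in the allografts. Against naive libraries 1 and 3 alone Nkg7 did separate, as did Prf1, at 0 and 0.333 against 0.426 to 2.05. The share of all genes under this scaling was not computed. Ptprc itself was at 239, 11.7 and 565 CPM in the naive libraries.

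For 3 of the 8 members (Nkg7, Gzma and Prf1) every allograft lay above every naive library. In TMM-scaled CPM this held for 2, Nkg7 and Gzma. Of all 17015 genes tested, 12.5% did so in CPM and 10.6% in TMM-scaled CPM, and against naive libraries 1 and 3 alone 21.6%. In the edgeR quasi-likelihood fit over all libraries, 0 of the 7 tested members passed an adjusted p of 0.05 (Benjamini-Hochberg over all genes), beside 0.0353% of all genes; Gzmk was below the filter on low counts. At an unadjusted p under 0.05 there were 2 members, Nkg7 and Gzmc, beside 10.3% of all genes, and DESeq2 called the same 2 at an adjusted p of 0.05, beside 6.66% of genes. Without naive library 2 edgeR called 1 member, Nkg7, of 8 tested, beside 3.10% of all genes. Without naive library 1 it called Nkg7 too, beside 0.568%, and limma on log2(FPKM + 1) over all libraries called Nkg7, beside 0.447%. The median fitted log2 fold change was 1.49 over the 7 tested members and -0.01 over all genes. Because the members were chosen from this contrast, nothing is read from these calls or medians.

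The genes whose log2 CPM followed that of Nkg7 most closely over the 7 libraries were taken from 9662 genes with an average log2 CPM of at least 3. They were Tnfsf8, the gene of CD30 ligand (Pearson's r = 0.995), S100a10, a partner of annexin A2 (0.990), Zfp292 (0.987), Mdp1 (0.987) and Rab10os (0.984). In all, 66 genes had an r above 0.95. These values describe 7 libraries in 2 groups, so a gene with a gap between the groups can reach a high r from that gap alone. Tnfsf8 was at 0.716, 0 and 0.528 CPM in the naive libraries and at 25.8, 37.9, 28.5 and 28.1 CPM in the allografts, a wider gap than that of Nkg7. S100a10 was at 360 ± 121 CPM (SD, n = 3) and 1339 ± 109 CPM (SD, n = 4). Among the members, r with Nkg7 was 0.851 for Gzma, 0.734 for Ctsw, 0.703 for Gzmb and 0.688 for Srgn.

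The rest of the granule pathway was followed in 7 lists of 69 genes, of which 68 were matched and 62 tested. By edgeR, 0 passed the adjusted threshold (at an unadjusted p under 0.05, 6 were higher and 3 lower, beside 6.41% and 3.86% of all genes). Without naive library 2, 6 passed: Cst3, Ctsg, Fasl, Stx11 and Tbx21 were higher and Ctso lower in the allografts, beside 3.00% of all genes called higher and 0.0998% called lower. DESeq2 over all libraries called 7, beside 6.66% of all genes, of which Stx11, Ctsg, Tbx21 and Ctso were shared with the fit without naive library 2 and Hps1, Stat5a and Zfp683 were not. In the edgeR fit 41 of the 62 were higher and 21 lower, with a median log2 fold change of 0.28 against -0.01 for all genes. With DESeq2 size factors, which move the median of all genes to -0.20, the split was 31 to 31 and the median of the lists 0.03.

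Among regulators of cytotoxic genes, 11 of 12 were higher and 1 lower, with a median log2 fold change of 0.89 against -0.01 for all genes, and 0 passed the adjusted threshold by edgeR. Without naive library 2, 10 were higher and 2 lower, with a median of 0.42 against 0.23 for all genes. Tbx21, the T-box factor T-bet that drives cytotoxic and type 1 programmes, had 0 counts in all naive libraries and was at 7.95, 4.32, 1.74 and 3.13 CPM in the allografts, at least 67.2-fold above the floor. Its adjusted p by edgeR was 0.144 over all libraries and 0.0446 without naive library 2, and it ranged from 4.74e-08 to 1 over 14 alternatives. Zfp683, the residency factor Hobit, was also at 0 in the naive libraries and averaged 2.52 ± 1.58 CPM (SD, n = 4) over the allografts. That was at least 39.5-fold above the floor, with an adjusted p by edgeR of 0.144, and of 0.0502 without naive library 2, in a range from 1.85e-06 to 1. Stat5a, a transducer of interleukin 2 family signals, was at 16.1 ± 7.47 CPM (SD, n = 3) and 61.0 ± 17.2 CPM (SD, n = 4), which edgeR fitted as 1.79 on the log2 scale (SE 0.418, adjusted p 0.161); DESeq2 called it, with an adjusted p of 0.000832, in a range from 0.000832 to 1 over 14 alternatives. Eomes, the T-box factor of natural killer cells, was at 0.641, 0 and 0 CPM against 2.59, 4.81, 0 and 1.75 CPM. Runx3 was at 72.8, 2.15 and 121 CPM against 109 ± 53.7 CPM (SD, n = 4), which overlapped. Stat5a, Eomes and Runx3 were named after their values had been seen.

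Of the 19 tested genes for granule movement and exocytosis, 14 were higher and 5 lower, with a median of 0.29, and 0 passed the adjusted threshold by edgeR. Stx11, the syntaxin of granule fusion whose loss causes a familial haemophagocytic disease in humans, was at 6.13, 6.90 and 12.5 CPM in the naive libraries and at 111, 70.6, 55.3 and 77.9 CPM in the allografts. Every allograft library held more than every naive library. The log2 fold change of Stx11 was 3.01 (SE 0.448), with an adjusted p by edgeR of 0.144 over all libraries and 0.0437 without naive library 2, and from 2.75e-07 to 1 over 14 alternatives, of which 3 passed. Hps1, a subunit of a complex for lysosome-related organelles, was at 13.1 ± 6.30 CPM (SD, n = 3) and 28.3 ± 2.87 CPM (SD, n = 4), with an adjusted p of 0.513 by edgeR and 0.0417 by DESeq2, in a range from 0.0417 to 1 over 14 alternatives. With DESeq2 size factors 10 of the 19 were higher and 9 lower.

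The 9 genes of granzyme maturation, sorting and granule membrane were mixed, 3 higher and 6 lower, with a median of -0.65 and 0 past the adjusted threshold by edgeR. They were 4 higher and 5 lower without naive library 2, with a median of -0.24. Cd63 and Lamp2, both lysosomal membrane proteins, had log2 fold changes of -3.84 and -1.88 over all libraries, which became 0.16 and -0.24 without naive library 2. Cd63 was at 50.4, 1112 and 20.1 CPM in the naive libraries and at 40.4 ± 4.75 CPM (SD, n = 4) in the allografts, so 1 library set its naive mean. Cst7 (cystatin F, an inhibitor of granzyme-processing cathepsins; named after its values had been seen) was at 87.4, 1.14 and 0 CPM in the naive libraries and at 72.2 ± 6.45 CPM (SD, n = 4) in the allografts.

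Of 7 protease inhibitors, 5 were higher and 2 lower, with 0 past the adjusted threshold by edgeR; with DESeq2 size factors the split was 2 to 5. Their median log2 fold change was 0.24, and 0.93 without naive library 2. Cst3, cystatin C, was at 430 ± 187 CPM (SD, n = 3) and 1130 ± 63.8 CPM (SD, n = 4), with adjusted p by edgeR of 0.524 over all libraries and 0.0234 without naive library 2, and from 0.0234 to 1 over 14 alternatives. Serpinb9, the inhibitor that protects killer cells from granzyme B, was at 93.3 ± 81.2 CPM (SD, n = 3) and 45.4 ± 6.46 CPM (SD, n = 4), and its log2 fold change of -1.45 became -0.22 without naive library 2. Serpinb6b (named after its values had been seen) was at 1.06, 48.9 and 40.1 CPM against 45.7 ± 11.1 CPM (SD, n = 4).

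Among 12 other cathepsins, 5 were higher and 7 lower, with a median of -0.43. Leaving out naive library 2, 10 were higher and 2 lower, with a median of 0.44. By edgeR 0 passed the adjusted threshold over all libraries. Ctso was at 88.2 ± 19.2 CPM (SD, n = 3) and 40.7 ± 1.94 CPM (SD, n = 4) and every allograft lay below every naive library, as for 2.15% of all genes, with a log2 fold change of -1.30 (SE 0.253). Its adjusted p by edgeR was 0.144, and 0.0433 without naive library 2, in a range from 5.97e-11 to 1 over 14 alternatives. Ctsg, the serine protease cathepsin G of neutrophils and mast cells, was at 0 in the naive libraries and averaged 2.79 ± 1.38 CPM (SD, n = 4) over the allografts, which put it at least 43.7-fold above the floor. Its adjusted p by edgeR was 0.144, and 0.0440 without naive library 2, in a range from 1.68e-07 to 1. The summed level of 8 neutrophil markers was at most 12.99 CPM in the naive libraries and 77.0 to 133 CPM in the allografts, and its part in the Ctsg level was not tested.

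The death ligands act beside granules. Fasl, the ligand of the death receptor Fas, was at 0, 3.91 and 0 CPM in the naive libraries and at 5.69 ± 2.25 CPM (SD, n = 4) in the allografts. Without naive library 2 it was at least 90.7-fold above the floor, with an adjusted p by edgeR of 0.0413, against 0.899 over all libraries and in a range from 0.0413 to 1 over 14 alternatives. Naive libraries 1 and 3, both at 0, were also those with the fewest detected genes. Tnfsf10, the ligand TRAIL, was at 33.1 ± 34.1 CPM (SD, n = 3) and 35.5 ± 10.04 CPM (SD, n = 4), fitted by edgeR at 0.02 on the log2 scale (adjusted p 0.998). Of the 6 other granzyme genes, only Gzmm was tested, at 0.36 on the log2 scale (adjusted p 0.986 by edgeR).

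**Figure D4:**
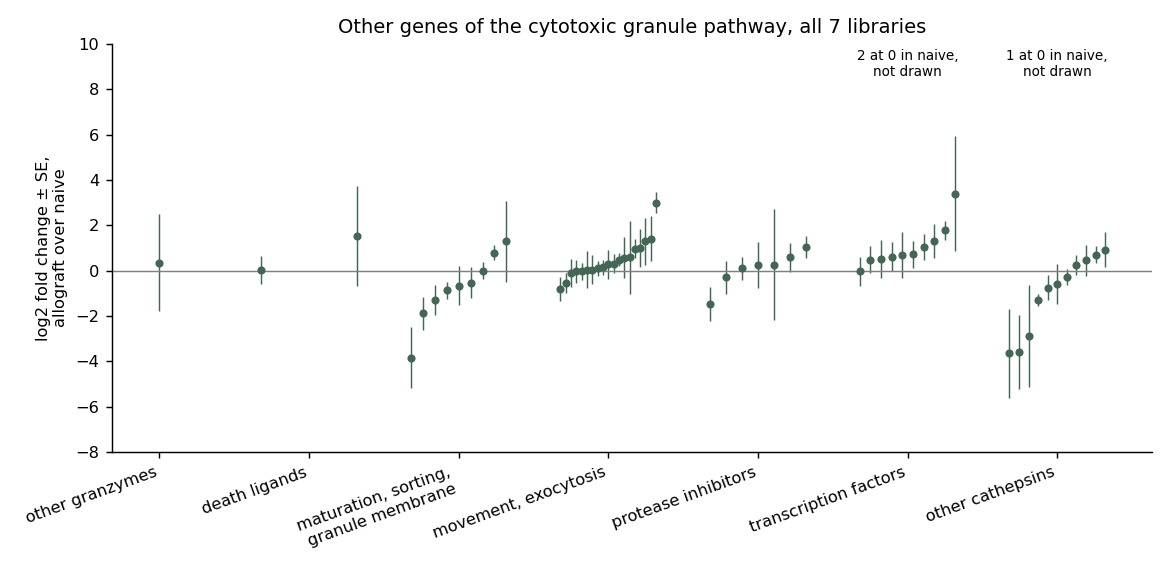
Each point is the fitted log2 fold change, allograft over naive, with its SE, of 1 tested gene of the 7 granule pathway lists over all 7 libraries, ordered by value within each list. The highest exocytosis gene is Stx11 at 3.01 and the lowest gene of maturation and sorting is Cd63 at -3.84; Tbx21, Zfp683 and Ctsg, with 0 counts in the naive libraries, are not drawn.

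The other cell types that a sort could hold were followed by 12 marker lists. The 14 markers of natural killer cells and ILC1s summed to 16.1, 11.1 and 115 CPM in the naive libraries and to 133 to 177 CPM in the allografts. All 14 were detected, and for 8 of 14 every allograft lay above every naive library, beside 12.5% of all genes tested. The defining marker Ncr1 was at 0, 2.37 and 28.8 CPM in the naive libraries and at 11.4 to 26.8 CPM in the allografts, Klrb1c at 0, 1.96 and 0 CPM and 10.4 to 20.8 CPM. The summed natural killer list, like Nkg7, was higher in every allograft library than in every naive library. Within the naive group it did not follow Nkg7. In the allografts, libraries 1 and 2 were above libraries 3 and 4 for both. The list summed to 177, 170, 132.6 and 132.9 CPM in allograft libraries 1 to 4, and Nkg7 was at 258, 273, 240.1 and 239.6 CPM. The part of the list in the levels of the granule genes was not tested. The ratio of Nkg7 to the summed list was 3.17, 2.18 and 0.450 in the naive libraries and 1.46 to 1.81 in the allografts. Naive library 3, with a list sum of 115 CPM, held 51.9 CPM of Nkg7, close to the 51.2 CPM of naive library 1, whose list sum was 16.1 CPM.

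Markers of several other cell types also had every allograft above every naive library, as did 12.5% of all genes tested. For 4 of 15 T cell markers this was so: Cd3g (79.0, 6.00 and 124 CPM against 175 to 219 CPM), Cd247 (0, 0.659 and 0 against 4.36 to 13.3 CPM), Trac (7.80, 5.06 and 10.6 against 12.5 to 19.6 CPM) and Trbc2 (182, 10.97 and 363 against 383 to 481 CPM). The defining T cell markers were low: Cd8a and Cd8b1 were at 0 in all naive libraries and at most 2.25 and 2.64 CPM in the allografts, Cd3e was between 0.154 and 1.24 CPM in all libraries, and Cd4 was at 0 in 5 libraries and at most 11.6 CPM. The T cell list of 15 genes summed to 590, 52.2 and 1719 CPM in the naive libraries and to 1362 to 1574 CPM in the allografts.

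Beside 12.5% of all genes tested, every allograft lay above every naive library for 4 of 8 dendritic cell, 4 of 8 B cell and 4 of 8 neutrophil markers as well. The defining dendritic cell markers Flt3 (at most 1.38 CPM in naive and 16.3 to 27.2 CPM in allograft libraries) and Zbtb46 (at most 5.06 against 27.2 to 44.3 CPM) were among them, as was the B cell marker Cd79a (at most 3.45 against 21.1 to 36.4 CPM). The sums of the dendritic cell list (34.0 to 116 against 103 to 137 CPM) and the B cell list (0 to 120 against 94.0 to 162 CPM) nonetheless overlapped. In these sums Ccr9 gave 84.5 CPM in naive library 3 and Cd79b 117 CPM in naive library 1. The neutrophil sum did not overlap, at 0 to 12.99 against 77.0 to 133 CPM.

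The platelet list was at 23.6 to 141 CPM in the naive libraries and at 207 to 321 CPM in the allografts, but 1 of its 7 genes, the integrin Itgb3, gave 203 to 316 CPM of the allograft sum. The defining platelet markers Pf4 and Ppbp were at most 4.92 CPM in any library. Sums of mast cell (105 to 797 against 337 to 365 CPM), macrophage and monocyte (2.49 to 480 against 179 to 286 CPM), endothelial (6.97 to 230 against 36.2 to 48.0 CPM) and fibroblast lists (0.0566 to 141 against 15.1 to 71.5 CPM) overlapped between the groups. Separated upward were 2 of 12 mast cell and 0 of the macrophage, endothelial and fibroblast markers, beside 12.5% of all genes tested. Naive library 2 set the upper end for the endothelial and fibroblast lists and the lower end for the mast cell list. Naive libraries 1 and 3 were at 31.2 and 6.97 CPM for the endothelial list, below every allograft. They were at 444 and 797 CPM for the mast cell list, above every allograft, and at 0.0566 and 114 CPM for the fibroblast list. The cardiomyocyte list was at most 9.22 CPM in any library. The part of these cell types in the levels of the members was not tested.

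**Figure D5:**
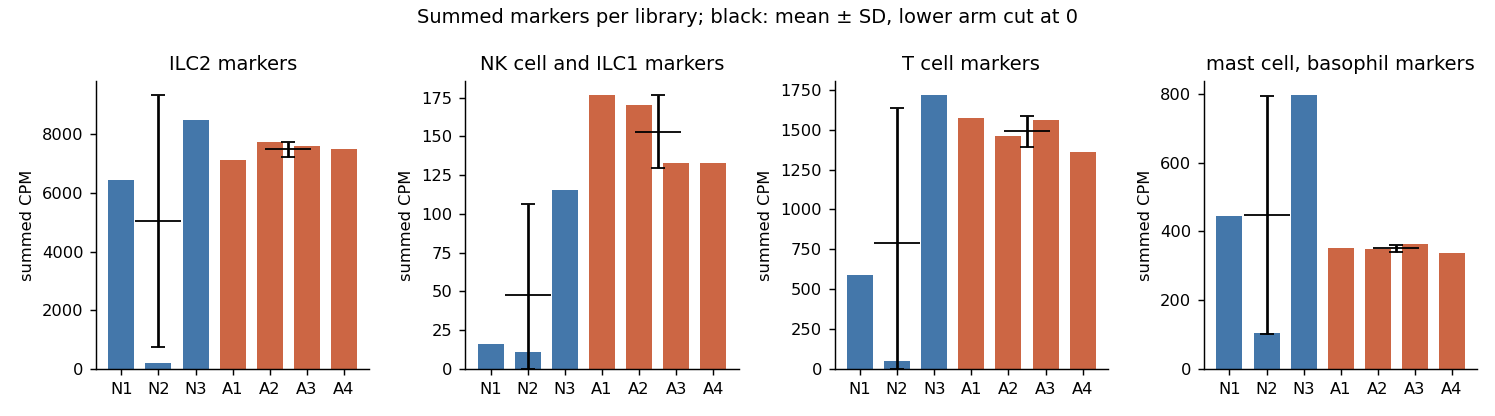
Bars give the summed CPM of 4 of the 12 cell type marker lists in every library, on linear axes from 0, with naive libraries (N1 to N3) in blue, allografts (A1 to A4) in orange, and the mean and SD of each group in black with the lower arm ending at 0. The natural killer cell and ILC1 list lies at 133 to 177 CPM in the allografts and at 11.1 to 115 CPM in the naive libraries, and the ILC2 list of N2 lies at 204 CPM.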

How the data were processed

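The authors deposited 1 table of counts and 1 table of FPKM per gene, with 7 library columns each and 0 columns left over. Per the submitters' processing notes, FastQC 0.11.5, STAR 2.5.3a, StringTie 1.3.1c, DESeq2 1.16.1 and mm10 were used; their roles, the annotation and the use of strand were not given in the sources used here. RNA was purified with a microprep kit and cDNA amplified with a full-length kit for single cells, per the labels' protocols, without molecular identifiers. The floors therefore cover counting error only. Both tables held the same measurement: over 7340 genes with at least 100 counts, the largest SD of the scaled FPKM to CPM ratio was 0.00295.

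CPM were computed from the deposited counts and their totals. edgeR 4.0.16 (R 4.3.3; TMM, filterByExpr, quasi-likelihood, Benjamini-Hochberg 0.05) was fitted to all 17015 genes kept by the filter, without covariates, and tested on simulated data. Alternatives were DESeq2 1.42.0, its size factors in edgeR, no filter, a mean of at least 50 counts, limma 3.58.1 on log2(FPKM + 1) of the deposited FPKM, a replicate block, and leaving out each library. Scaling to Ptprc, leaving out libraries other than naive library 2 for levels and composition, and the unblocked fit on the block's 6 libraries were added after seeing the data. P-values measure the spread between pools.

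Members and lists were chosen with earlier results of these data known. Named genes were the members; in each pathway list up to 3 genes past the threshold, otherwise the 2 with the smallest unadjusted p; and the 5 genes most correlated with Nkg7 (log2 CPM, prior count 2). Vamp7 was the 1 listed gene without a match. Of the identifiers, 55154 occurred in GENCODE M21, the source of positions and transcripts; promoters came from RefSeq (GRCm38.p6), with an entry for 7 of the 8 members.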

Additional observations from a re-analysis of the deposited data

Results flagged for a closer look

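Of 51 values examined over the 4 allograft libraries (members, named genes, marker list sums and ratios), 3 had 1 library apart from the other 3 by Dixon's criterion at 95%. Chance alone sets about 5% of such values apart, or 2.55 of 51. Mdp1, a gene that followed Nkg7 closely, was at 87.6 CPM in allograft library 3 and at 80.3 to 81.0 CPM in the others. Rab10os, named as a transcript opposite Rab10, was at 39.96 CPM in allograft library 2 and at 31.6 to 33.0 CPM in the others; without known use of strand its reads cannot be told apart from those of an overlapping gene. The macrophage and monocyte list summed to 286 CPM in allograft library 1 and to 179 to 191 CPM in the others, and that library was also the highest for 6 of the 8 granule genes. Its part in those levels was not tested.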

How the results depend on the processing

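Over all 7 libraries edgeR called 6 genes, against 1012 with DESeq2, 76 with limma on FPKM and 0 with the replicate block; leaving out 1 library gave 0 to 560 (560 without naive library 2, 107 without naive library 1, 0 without any 1 allograft). Higher and lower calls numbered 5 and 1 in the main fit, 4 and 0 with DESeq2 size factors in edgeR, and 633 and 379 with DESeq2. Members called numbered 0 in the main fit, 2 with DESeq2 and 1 with limma, beside 0.0353%, 6.66% and 0.447% of all genes. With a library left out they numbered 0 to 1. The share of all genes was 3.10% without naive library 2 and 0.568% without naive library 1. Pathway genes called numbered 0, 7 with DESeq2, 1 with limma and 0 to 6 with a library left out, and their median log2 fold change of 0.28 was 0.58 with the replicate block. Members that separated the groups numbered 3, and 2 in TMM-scaled CPM (Prf1 lost). They numbered 3 to 5 with a library left out (5 without naive library 1, adding Gzmb and Ctsw). After scaling to Ptprc over all 7 libraries they numbered 0, though Nkg7 and Prf1 separated against naive libraries 1 and 3 alone. Of all genes, 12.5% did so in CPM, 10.6% in TMM-scaled CPM and 21.6% without naive library 2. That share was not computed for the other settings. The share of Gzma among granzyme FPKM differed by -1.23 percentage points (allograft minus naive) and by -5.62 to 4.68 with a library left out, turning to 4.68 without naive library 3. The members' median log2 fold change ran from 1.28 to 2.52 with a library left out. Of 92 recomputed log2 fold changes of members, 89 shifted by less than the pooled SD of that gene within groups, 3 moved by more and 0 reversed. That SD, of log2 CPM, includes naive library 2. Shifts of Ctsw from 0.80 to 2.19 without naive library 1 and of Srgn from 0.57 to 0.03 without naive library 2 stayed under it. The cause of these shifts was not tested.

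Replicate numbers did not pair the samples: deviations of same-numbered libraries correlated at 0.0169, -0.0196 and 0.036, and of the 6 libraries only naive library 3 correlated best with its own number. The block on 6 libraries gave 0 calls, as did the same 6 libraries without it (478 and 848 genes at an unadjusted p under 0.05). The lowest detected levels of Gzmc, Gzmk and Prf1 rested on 16 to 82 counts. The part of depth in these levels was not tested.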
